A study of Mus musculus with 4 samples.

Results

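Arginine is the substrate from which cells make nitric oxide, and the genes described here carry it into the cell, turn it into nitric oxide or send it elsewhere. The members are 10 named genes: Nos2, Slc7a1, Slc7a2, Arg1, Arg2, Ass1, Asl, Gch1, Odc1 and Ddah2. A gene was given a value when the probe annotation listed a probe set under that symbol alone, and where several did, the one with the highest average was taken. By this rule 9 of the 10 have a value, among 19938 genes with a value in all. Ass1 has none, because both probe sets that list it also list Gm5424, a transcribed pseudogene in RefSeq. All 9 reached the floor of 4.26, the median probe set, on all 4 arrays.

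The study compared the inflammatory expression of microglia, brain-resident macrophages, from mice with and without Bid, a pro-apoptotic member of the Bcl-2 family. Total RNA was hybridised to 4 Affymetrix Mouse Gene 1.0 ST arrays, with 1 array in each of 4 groups: microglia labelled Bid-/- given lipopolysaccharide (LPS) for 3 h, Bid-/- without any agent, wild type (WT) given LPS for 3 h, and WT without any agent. The strain of the WT cells is labelled C57Bl, while the sources used here give no strain for the Bid-/- cells, and no age of the animals, number of cultures or dose of LPS. Values are log2 expression, so that a difference of 1 is a 2-fold difference. Every difference of 2 single arrays stands without a replicate check.

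Microglia and macrophages that sense LPS through TLR4 are known to switch on the inducible nitric oxide synthase, Nos2, within hours. Its output depends on arginine entry through cationic amino acid transporters, on the cofactor tetrahydrobiopterin, whose synthesis starts with the Gch1 enzyme, and on the recycling of citrulline to arginine by Ass1 and Asl. Arginases compete for the same arginine and yield ornithine, which Odc1 passes on to the polyamines.

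The labels and the cell type were checked first. Bid itself read 5.97 on the Bid-/- array and 5.02 on the WT array with LPS, and 5.53 on the Bid-/- array and 5.69 on the WT array without it. Its signal thus did not separate the labels, and the sources used here do not say whether its probes fall within the deletion. Genotypes below are therefore those of the labels. The Y-linked gene Eif2s3y was 0.95 (with LPS) and 1.00 (without) higher on the Bid-/- arrays, and Nnt, which varies between C57BL/6 substrains, was -0.79 and -0.81; in every comparison between the labels, the effect of Bid cannot be told apart from sex, strain background or culture. Of 12 microglia markers 11 had a value and 10 or 11 reached the floor on each array, with the CSF1 receptor gene Csf1r at 10.46 and 10.78 on the Bid-/- arrays with and without LPS and at 10.10 and 10.61 on the WT arrays. P2ry12 stayed between 3.90 and 4.38. Of 7 measured monocyte and neutrophil markers 0 reached the floor on any array. Of 8 astrocyte markers 6 reached it on at least 1 array, with Gja1 between 4.84 and 5.99, while Gfap and Aqp4 did not. So did 5 of 6 measured oligodendrocyte lineage markers (Mbp between 5.64 and 5.97), 4 of 6 endothelium markers and 1 of 6 neuron markers. In such cell populations fewer cells of a type and less RNA per cell cannot be told apart.

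**Figure D1:**
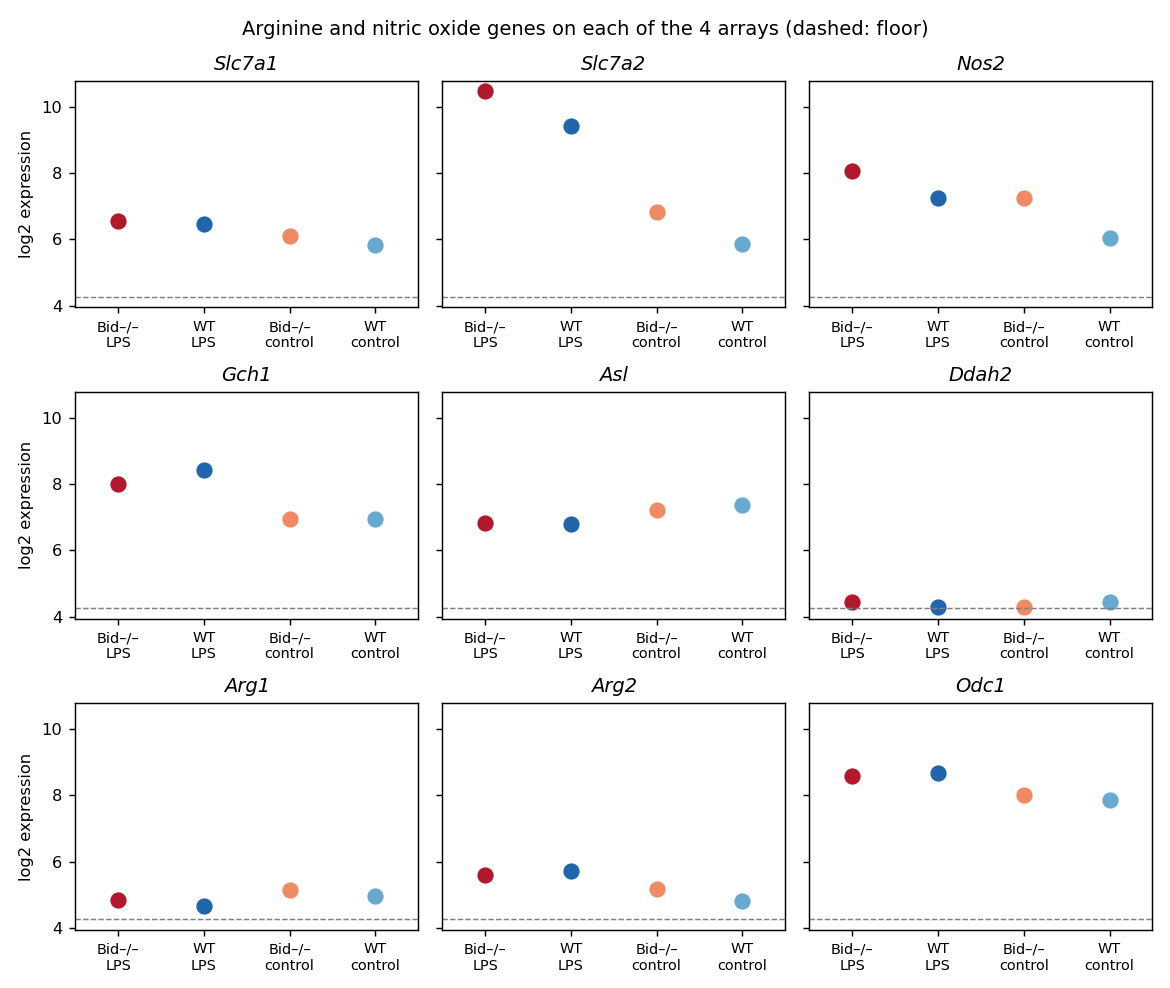
Log2 expression (vertical axis) of the 9 genes with a value, 1 point per array, with the floor of 4.26 as a dashed line. Slc7a2 spans 4.60 over the 4 arrays and Nos2 2.03, and Ddah2 lies within 0.16 just above the floor.

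LPS was followed by higher values of the inducible arginine carrier, the nitric oxide synthase and the cofactor enzyme in cells of both labels, and by lower values of Asl and Arg1. Among the 9 genes, 2 were at least 2-fold higher with LPS on the Bid-/- arrays (Slc7a2 and Gch1), where 2.7% of 10995 genes were. In WT 3 were (Slc7a2, Gch1 and Nos2), where 2.39% of 11129 genes were; Arg2 passed as well with the intensity trend removed (1.02). At least 2-fold lower values were read for 0 of the 9 in either label, against 1.65% of all genes on the Bid-/- arrays and 2.08% in WT. The median LPS difference of the 9 was 0.46 on the Bid-/- arrays and 0.82 in WT, beside -0.10 and -0.05 for all genes.

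The mean LPS change over both labels was tested with an additive fit (limma, log2 expression on genotype and LPS). Adjustment was by Benjamini-Hochberg over 11326 genes, with a threshold of 0.05. It has 1 residual degree of freedom, the difference of response between the labels. The error combines this with a prior from all genes (3.07 degrees of freedom), so unequal response is penalised only in part. The fit called 1 of the 9 genes, Slc7a2, higher with LPS and 0 lower, where it called 1.68% of all genes higher and 1.56% lower. At an unadjusted limma p under 0.05, 6 of the 9 were higher and 2 lower, against 9.08% and 19.7% of all genes. The labels do not say whether the arrays came from separate cultures, so these p-values may measure technical spread.

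Slc7a2, the carrier CAT2, rose with LPS. This cationic amino acid transporter is the family member known to be induced in activated macrophages. It read 10.46 with LPS and 6.81 without on the Bid-/- arrays, and 9.43 with LPS and 5.86 without in WT. Both LPS arrays lay above both control arrays. The difference of 3.65 on the Bid-/- arrays (12.6-fold) ranked 4 from the top of 10995 genes, and that of 3.57 in WT (11.9-fold) ranked 10 of 11129. The mean change was 3.61 (SE 0.15, limma adjusted p = 0.0209), and the responses of the 2 labels differed by 0.08. Over 7 alternative settings its limma adjusted p lay between 5.56e-62 and 0.0951, and was under the threshold in 6 of them. It was highest without a floor and lowest when genes with a residual of exactly 0 were left out. In that last setting the prior degrees of freedom were infinite, so a gene's own residual had no weight. The lowest value is therefore no measure of the evidence in 4 arrays.

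Slc7a1, the widely expressed carrier CAT1, differed less. It read 6.55 with LPS and 6.09 without on the Bid-/- arrays, and 6.47 with LPS and 5.84 without in WT. Both LPS arrays again lay above both controls, by 0.46 on the Bid-/- arrays and 0.63 in WT (mean 0.545, SE 0.13, limma adjusted p = 0.0898). Slc7a1 passed in 2 of 7 alternative settings.

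Nos2, which makes nitric oxide from arginine, read 8.07 with LPS and 7.26 without on the Bid-/- arrays, and 7.25 with LPS and 6.04 without in WT. The untreated Bid-/- array thus read as high as the LPS-treated WT array, so LPS and control values overlapped between the labels though not within either. The LPS difference was 0.81 on the Bid-/- arrays (1.75-fold, rank 441 from the top) and 1.21 in WT (2.31-fold, rank 185). The mean of 1.01 (SE 0.17) did not pass (limma adjusted p = 0.0594). It passed in 4 of 7 alternative settings, with limma adjusted p between 1.09e-05 and 0.140, the lowest again without genes of residual 0.

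Gch1, GTP cyclohydrolase 1, the first and rate-limiting enzyme of tetrahydrobiopterin synthesis, read 7.99 with LPS and 6.96 without on the Bid-/- arrays, and 8.42 with LPS and 6.96 without in WT. The control arrays read the same value to 2 decimals, and both LPS arrays lay above them. The differences were 1.03 (2.04-fold) and 1.46 (2.75-fold), and their mean of 1.245 (SE 0.18) narrowly missed the threshold (limma adjusted p = 0.0527). Over 7 alternative settings the limma adjusted p lay between 6.71e-08 (without genes of residual 0) and 0.135 and was under the threshold in 4.

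The sequences just upstream of Gch1 and Slc7a1 are shown because both genes read higher with LPS in both labels and both have an entry in the RefSeq promoter table (GRCm38.p6), which holds 4 of the 9 genes. Odc1 met the same terms and is not printed, because its window overlaps an annotated transcript of the gene; it holds 1 TGACG and 0 CCAAT. Each line gives the 250 bases before an annotated start, 5′ to 3′ on the strand of the gene, with every CCAAT and TGACG on either strand in capitals. They are chr14:47189414-47189663, minus strand, for Gch1, and chr5:148399905-148400154, minus strand, for Slc7a1, whose other listed start has 0 matches of any pattern searched.
Gch1: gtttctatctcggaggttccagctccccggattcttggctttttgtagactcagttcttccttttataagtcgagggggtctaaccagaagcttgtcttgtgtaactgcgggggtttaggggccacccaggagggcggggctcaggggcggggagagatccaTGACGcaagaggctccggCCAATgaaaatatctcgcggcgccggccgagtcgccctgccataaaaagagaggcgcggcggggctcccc
Slc7a1: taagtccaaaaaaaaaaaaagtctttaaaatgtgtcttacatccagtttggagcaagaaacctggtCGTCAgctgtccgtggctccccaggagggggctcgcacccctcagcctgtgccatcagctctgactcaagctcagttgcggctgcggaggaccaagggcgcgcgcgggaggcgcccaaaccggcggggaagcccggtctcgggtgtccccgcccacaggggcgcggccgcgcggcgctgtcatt
The Gch1 window holds 1 TGACG, the core of cyclic AMP response elements, beginning 88 bases before the start, and 1 CCAAT, the core of the CCAAT box, beginning 70 bases before it; they do not overlap. The Slc7a1 window holds 1 TGACG, read on the opposite strand as CGTCA, and 0 CCAAT. Of 32851 windows of the same length in the table, 17.8% hold TGACG and 33.8% hold CCAAT. A loose NF-kB pattern, GGG and CC with any 5 bases between them, was also searched on both strands and is not in capitals. It begins at 3 places in the Gch1 window, at 5 in the Slc7a1 window, where some overlap, and at 1 in the Odc1 window, and 45.8% of all windows hold it. Such matches describe letters, not binding.

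Asl, argininosuccinate lyase, which completes the return of citrulline to arginine, read lower with LPS. It gave 6.83 with LPS and 7.22 without on the Bid-/- arrays, and 6.80 with LPS and 7.37 without in WT. Both LPS arrays lay below both controls, by -0.39 and -0.57 (mean -0.48, SE 0.14, limma adjusted p = 0.128). In 0 of 7 alternative settings did it pass.

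The differences of the arginases had opposite signs, and neither passed in the main fit. Arg1, the cytosolic arginase used as a sign of alternative macrophage activation, read 4.84 with LPS and 5.13 without on the Bid-/- arrays, and 4.67 with LPS and 4.97 without in WT. Its differences of -0.29 and -0.30 were nearly equal (mean -0.295, SE 0.10, limma adjusted p = 0.155), and were common in size: counted from the most negative, they ranked 3318 of 10995 genes on the Bid-/- arrays and 3060 of 11129 in WT. Arg2, the mitochondrial arginase, read 5.59 with LPS and 5.16 without on the Bid-/- arrays, and 5.72 with LPS and 4.82 without in WT. Its difference was 0.43 on the Bid-/- arrays and 0.90 in WT, a gap of -0.47 between the labels (mean 0.665, SE 0.16, limma adjusted p = 0.0912).

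Odc1, ornithine decarboxylase, which opens polyamine synthesis from the ornithine that arginases release, read 8.59 with LPS and 8.00 without on the Bid-/- arrays, and 8.67 with LPS and 7.85 without in WT. Both LPS arrays lay above both controls, by 0.59 and 0.82 (mean 0.705, SE 0.15, limma adjusted p = 0.0828). Odc1 passed in 4 of 7 alternative settings. A separate probe set listed under Odc1 read 8.32 with LPS and 7.57 without on the Bid-/- arrays, and 8.24 with LPS and 7.47 without in WT, so its differences of 0.75 and 0.77 had the same direction. Ddah2, which degrades the methylarginine inhibitors of nitric oxide synthases, stayed near the floor. It read 4.45 with LPS and 4.29 without on the Bid-/- arrays, and 4.30 with LPS and 4.45 without in WT, and its mean LPS change was 0.005 (SE 0.12, limma adjusted p = 0.985).

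**Figure D2:**
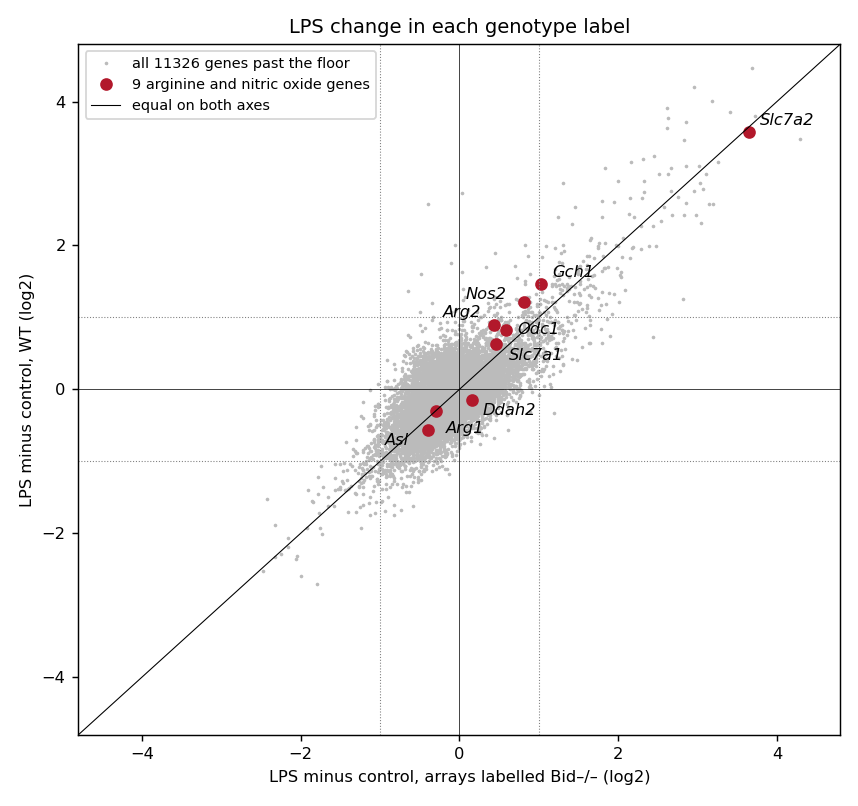
LPS minus control (log2) on the arrays labelled Bid-/- (horizontal axis) and in WT (vertical axis) for 11326 genes (grey) and the 9 arginine and nitric oxide genes (red), with 2-fold lines dotted. Slc7a2 lies near the diagonal at 3.65 and 3.57, and Nos2, Gch1, Arg2, Odc1 and Slc7a1 lie above it, with a larger difference in WT.

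Between the labels, Slc7a2 and Nos2 read higher on the Bid-/- arrays both with and without LPS, and the other 7 genes differed by at most 0.43. With LPS, Slc7a2 read 10.46 on the Bid-/- array and 9.43 on the WT array, a difference of 1.03 (2.04-fold, rank 33 of 11044 genes), and Nos2 read 8.07 and 7.25 on the same arrays, a difference of 0.82 (1.77-fold, rank 126). Without LPS, Nos2 read 7.26 on the Bid-/- array and 6.04 on the WT array, a difference of 1.22 (2.33-fold, rank 19 of 10909), and Slc7a2 read 6.81 and 5.86, a difference of 0.95 (1.93-fold, rank 44). At least 2-fold higher values were thus read for 1 of the 9 genes with LPS (0.326% of all genes) and for 1 without (0.358%), and lower ones for 0 (0.489% and 0.0733%). The 2-fold call of Slc7a2 with LPS ended when trends of the difference with intensity were removed (0.97) and when a trend with gene span was taken out as well (0.83).

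The genotype term of the additive limma fit called 0 of the 9 genes and 0 of 11326 (0.0%). At an unadjusted p under 0.05 it held 2 of the 9, against 709 of all genes (6.26%). The estimate was 0.99 for Slc7a2 (SE 0.15, limma adjusted p = 0.623) and 1.02 for Nos2 (SE 0.17, limma adjusted p = 0.623). Both genes passed in 2 of 7 alternative settings, after quantile normalization and when genes with a residual of exactly 0 were left out. Their limma adjusted p ranged from 0.000627 to 0.688 for Slc7a2 and from 0.000136 to 0.688 for Nos2. Both lowest values came without genes of residual 0, where the prior degrees of freedom were infinite.

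Genes of fibroblast and mural cells moved with this difference without LPS. Of 12 such markers, 8 reached the floor and all 8 were higher on the Bid-/- array than on the WT array without LPS (median difference 0.765); with LPS 6 of 8 were higher (median 0.215). On the linear scale the signal of the 12 summed to 658 on the Bid-/- array and 715 on the WT array with LPS, and to 776 on the Bid-/- array and 386 on the WT array without it. Dcn weighed most in the sum of 776. Without LPS it read 8.09 on the Bid-/- array and 5.94 on the WT array (2.15, rank 3 of 10909 genes). With LPS set against control, their median difference was -0.085 on the Bid-/- arrays and 0.76 in WT, where all 8 were above 0. Lum, Cspg4, Rgs5 and Des were below the floor on every array. With LPS, Tagln (-1.43) and Acta2 (-0.90) were the 2 of the 8 that read lower on the Bid-/- array. The part of these cells in the differences of Nos2 and Slc7a2 was not tested.

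**Figure D3:**
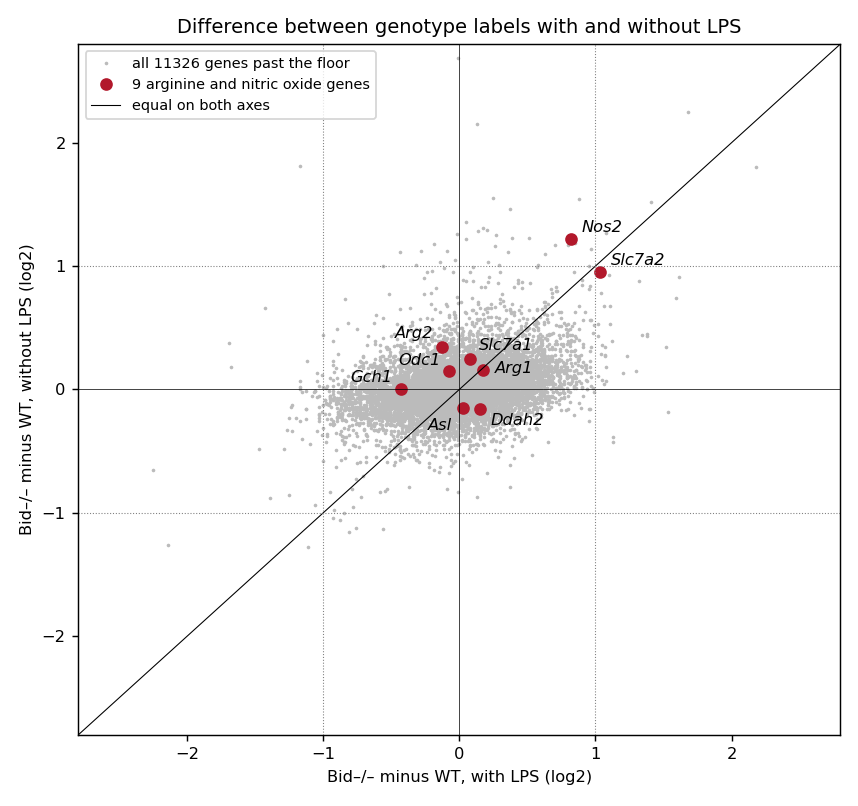
Bid-/- minus WT (log2) with LPS (horizontal axis) and without LPS (vertical axis) for 11326 genes (grey) and the 9 arginine and nitric oxide genes (red). Nos2 (0.82 and 1.22) and Slc7a2 (1.03 and 0.95) lie apart at the upper right, while the other 7 lie between -0.43 and 0.34 on both axes.

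The remaining genes showed small differences between the labels. Gch1 was -0.43 with LPS, the lowest of the 9, and 0.00 without. Arg1 was 0.17 with and 0.16 without LPS. Slc7a1 was 0.08 with LPS, which turned to -0.11 once both trends were taken out, and 0.25 without LPS. The LPS difference on the Bid-/- arrays minus that in WT was negative for 5 of the 9 genes (49.1% of all genes), from -0.47 for Arg2 through -0.43 for Gch1, -0.40 for Nos2 and -0.23 for Odc1 to -0.17 for Slc7a1; the median of the 9 was -0.17 beside 0.00 for all genes. It was at least 2-fold for 0 of the 9 in either direction, where 0.159% of 11326 genes were higher and 0.627% lower. With 4 arrays this difference was not tested, and it uses the same control arrays as the comparison of the labels without LPS.

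Of 78 other genes on 9 lists related to arginine and nitric oxide metabolism, 68 had a value and 45 reached the floor on any array. The additive limma fit called 2 of these 45 higher with LPS and 0 lower (1.68% and 1.56% of all genes). Their median LPS difference was -0.21 on the Bid-/- arrays and 0.01 in WT. Both genes called, Slc7a11 and Ccl22, stand outside the nitric oxide pathway itself.

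Among other nitric oxide synthases and their partners, 0 of 8 genes past the floor were called. The neuronal synthase Nos1 was below the floor on all 4 arrays, and the endothelial synthase Nos3 passed it on 1, at 4.35 in WT with LPS. Nosip, a ubiquitin ligase named for its interaction with nitric oxide synthases, read 6.31 with LPS and 7.15 without on the Bid-/- arrays, and 6.32 with LPS and 6.99 without in WT (limma adjusted p = 0.0657). Nostrin, a trafficking adaptor of the endothelial synthase, was -0.52 and -0.54 with LPS, and the calmodulin gene Calm3, whose product Nos2 binds, was -0.40 on the Bid-/- arrays and 0.16 in WT.

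Of 8 further carriers past the floor 1 was called, Slc7a11, the cystine and glutamate exchanger, which does not carry arginine. It read 11.39 with LPS and 9.64 without on the Bid-/- arrays, and 11.01 with LPS and 9.02 without in WT (differences 1.75 and 1.99, limma adjusted p = 0.0272). Slc7a7, the y+LAT1 subunit for arginine exchange, was -0.38 in both labels, and its partner chain Slc3a2 was 0.15 and -0.10. Slc38a9, the lysosomal arginine sensor, was -0.51 and -0.71, and the neutral amino acid carrier Slc7a8 was 0.15 and -0.40. Slc7a3, the carrier CAT3, was below the floor on every array.

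Of 5 other measured genes of the tetrahydrobiopterin pathway 3 reached the floor and 0 of these were called. Pts, which makes the next intermediate after Gch1, was -0.69 on the Bid-/- arrays and 0.13 in WT; Spr, which completes synthesis, was -0.42 and 0.14; and Qdpr, which regenerates the cofactor, was -0.54 and -0.25. Gchfr, the feedback regulator of the Gch1 enzyme, was below the floor on all 4 arrays.

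Downstream of the arginases, 0 of 7 polyamine genes and 0 of 5 genes of ornithine, proline, urea cycle and creatine metabolism past the floor were called. Srm, spermidine synthase, was -0.59 on the Bid-/- arrays and 0.08 in WT, Sat1, which acetylates polyamines for export, was 0.18 and 0.46, and the polyamine exporter of lysosomes Atp13a2 was -0.69 and -0.68. Aldh18a1, which makes the precursor of proline, was -0.94 and -0.47. Gatm, which uses arginine for creatine, was -0.70 and -0.40, and Gamt, the next enzyme of creatine synthesis, was -0.44 and 0.40. The urea cycle genes Otc, Cps1 and Nags, known from liver, were below the floor on every array.

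Of 5 genes of arginine methylation past the floor 0 were called. The arginine methyltransferases Prmt5 (-0.76 on the Bid-/- arrays and -0.35 in WT) and Prmt3 (-0.66 and -0.36) had negative LPS differences, and Ddah1, the other methylarginine hydrolase, was -0.34 and 0.44. Of 7 genes that receive or clear nitric oxide 1 reached the floor, Adh5, which reduces S-nitrosoglutathione (-0.54 and -0.30). The guanylate cyclase subunits Gucy1a1, Gucy1a2 and Gucy1b1 and the cGMP-dependent kinases Prkg1 and Prkg2 were below it on all arrays.

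Transcription factors known to act on Nos2 were split. Of 4 past the floor 0 were called. Rela, the p65 subunit of NF-kB, read 8.19 with LPS and 7.39 without on the Bid-/- arrays, and 8.35 with LPS and 7.27 without in WT (limma adjusted p = 0.0605). Irf1 was -0.68 and -0.64 with LPS, Hif1a 0.39 and 0.43, and Cebpb -0.01 and 0.32. Between the labels, Hif1a was 0.54 higher with and 0.58 higher without LPS on the Bid-/- arrays, and Irf1 0.43 and 0.47.

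**Figure D4:**
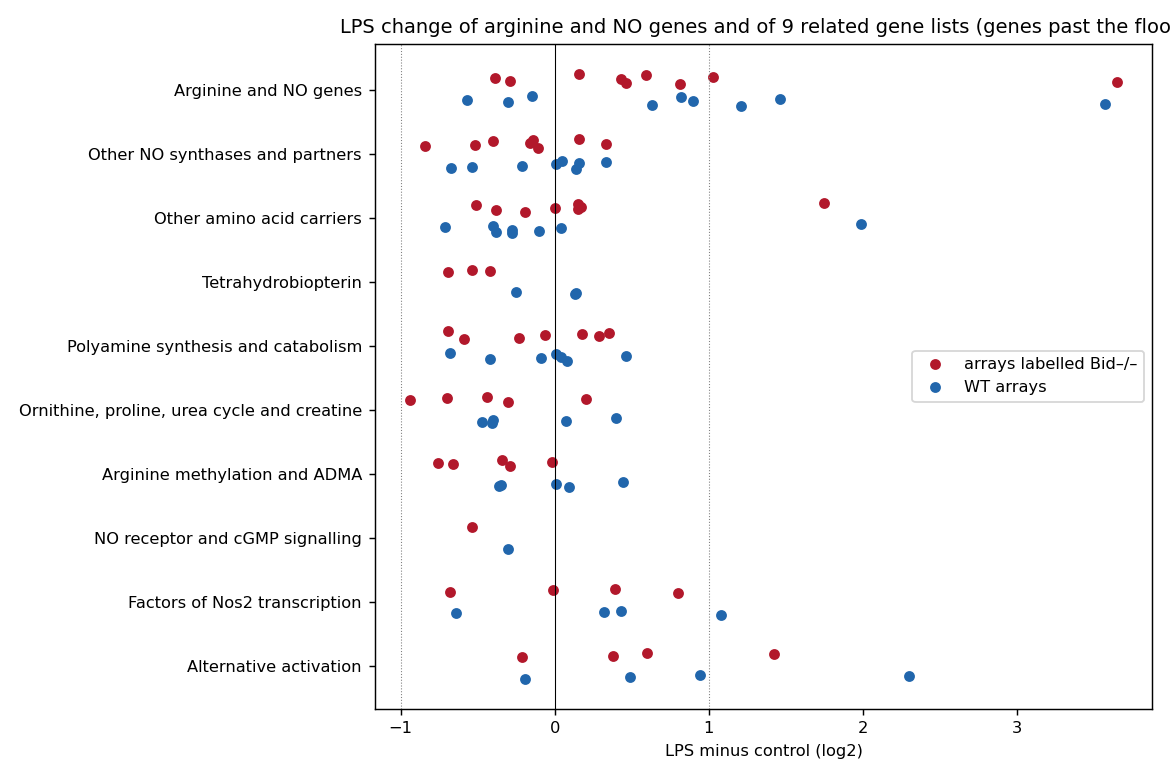
LPS minus control (log2, horizontal axis) for the 9 arginine and nitric oxide genes and for the genes of 9 related lists that reached the floor on at least 1 array, 1 point per gene and label, Bid-/- above WT in each row. Outside the 9, only Slc7a11 and Ccl22 exceed 1 in both labels.

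The genes whose pattern over the 4 arrays was closest to that of Nos2 were found by the Euclidean distance between profiles centred on their own means, among 11325 other genes. They were Tgm2, transglutaminase 2 (distance 0.24), the matrix protein gene Fn1 (0.29), the lipid phosphatase gene Plpp3 (0.31), the mitochondrial adenylate kinase gene Ak4 (0.36) and the formin gene Fmnl2 (0.41), and 13 genes lay within 0.5. Tgm2, which also stands on the list of alternative activation genes, read 8.52 with LPS and 7.92 without on the Bid-/- arrays, and 7.67 with LPS and 6.73 without in WT, so that it too was higher on the untreated Bid-/- array than on the WT array with LPS. Closest to Slc7a2 were Tnfsf15, a TNF family ligand (0.36), Malt1 (0.64), Nlrp3 (0.75), Il1a (0.78) and Serpinb2 (0.78), and 1 gene lay within 0.5. Tnfsf15 read 9.24 with LPS and 5.52 without on the Bid-/- arrays, and 8.61 with LPS and 4.81 without in WT. Around Arg1, 6858 genes lay within 0.5. Its values span only 0.46 over the 4 arrays, so this distance also takes in genes that hardly change. The closest to Arg1 were Lgals9 and Nup155 (0.0087 each), Cul9 (0.017), 9130023H24Rik and Tmem62 (0.022 each). With 4 points these distances are descriptions.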

How the data were processed

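Total RNA of microglia was measured on 4 arrays, 1 in each of 4 groups taken from the sample titles. The deposited table gives log2 expression for 28944 probe sets; the authors named RMA, Affymetrix Expression Console and Partek 6.2, per the submitters' processing notes, without saying which did what. The log base was read from the range of the values. RMA brings arrays to a common distribution, which would remove a shift shared by all genes. The number of arrays limits the precision. Scanner values were not used here.

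In the annotation 21789 probe sets carry 1 symbol, 1621 carry several and 5534 carry none; genes were named from those with 1 symbol, of which 21698 matched the RefSeq table of GRCm38.p6 by Entrez identifier, which changed 0 symbols. A comparison of 2 arrays used the genes that reached 4.26 on at least 1 of them. limma 3.58.1 in R 4.3.3 (lmFit, eBayes with an intensity trend) was fitted on 11326 genes. In this fit 169 genes had a residual of exactly 0 through rounding. The same fit was run on simulated data without rounding, which cannot check the effect of such genes. Trends were removed with lowess (statsmodels 0.14.6, fraction 0.3). Alternatives were quantile normalization, trend removal, the mean of probe sets, other floors, a 1.5-fold threshold and other variance priors. Named genes are all members and, per list, genes at least 2-fold different or called and up to 3 others with the largest LPS difference; a few further list genes are named for being below or near the floor, and Slc3a2, chosen after its values were seen. The members and lists were chosen with earlier results of these data known.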

Additional observations from a re-analysis of the deposited data

Results flagged for a closer look

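For 4 genes the sign of a difference was not the same in the conditions compared, 1 array against 1 in each case, and the difference between the 2 effects was not tested. Bid-/- minus WT was -0.13 with LPS and 0.34 without for Arg2, 0.03 with and -0.15 without for Asl, -0.08 with and 0.15 without for Odc1, and 0.15 with and -0.16 without for Ddah2. LPS minus control was 0.16 on the Bid-/- arrays and -0.15 in WT for Ddah2. The SD of the difference between the 2 control arrays over the genes tested was 0.21, and 1 of these 10 values, 0.34 for Arg2, is larger. That SD includes the difference between the labels and was not computed for comparisons with an LPS array. These spread wider: between the labels, 10.8% of genes passed 1.5-fold with LPS and 1.89% without. With the intensity and gene span trends removed, Ddah2 moved to 0.41 for Bid-/- minus WT with LPS, and to 0.23 on the Bid-/- arrays and -0.32 in WT for LPS minus control. With LPS the sign for Odc1 turned in that setting (0.014), and that for Asl turned with the intensity trend alone removed (-0.041).

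The 2 probe sets that list Ass1 together with Gm5424 were left out of every comparison. Both read higher with LPS within each label, but the WT array with LPS read below the untreated Bid-/- array. One read 9.12 with LPS and 8.98 without on the Bid-/- arrays, and 8.70 with LPS and 8.29 without in WT, which is 0.14 and 0.41 higher with LPS. The other read 8.90 with LPS and 8.79 without on the Bid-/- arrays, and 8.46 with LPS and 8.09 without in WT, which is 0.11 and 0.37 higher. Bid-/- minus WT was 0.42 and 0.44 with LPS and 0.69 and 0.70 without. The gene and the pseudogene cannot be told apart in these values.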

How the results depend on the processing

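Without replicates, the number of arrays is a limit for every gene. Signal over background was not measured. Ddah2 lies at the floor, and Arg1, Arg2 and Ddah2 stayed below the floor at the 75th percentile (6.34) on all 4 arrays. No paired analysis was possible because each group has 1 array and the labels give no replicate numbers. A fit without 1 array leaves 0 residual degrees of freedom. The count of members at least 2-fold changed was 0 in place of 1 between the labels with LPS once the intensity trend, or that and the gene span trend, was removed; in both settings it was 4 in place of 3 for LPS in WT, through Arg2. At 1.5-fold it was 4 (Bid-/-, where 757 of 10995 genes were higher and 1141 lower) and 6 (WT, 646 of 11129 higher and 1231 lower) with LPS, and 2 between the labels both with LPS (518 of 11044 higher and 670 lower) and without (158 of 10909 higher and 48 lower). The additive limma fit for LPS called 1 of 9 members and 367 genes; it called 0 and 0 without a floor, 4 (of 6) and 823 with a floor at the 75th percentile, 5 and 1576 with a robust prior, 6 and 1928 after quantile normalization, and 6 and 2525 without genes of residual 0. Its genotype term called 0 members and 0 genes, 2 and 40 after quantile normalization, and 2 and 212 without genes of residual 0. Genes of residual 0 lower the prior degrees of freedom to 3.07. Without them these were infinite, so a gene's own residual had no weight. For the other settings the cause was not tested. Of the genes 2-fold changed with LPS, 62.1% (Bid-/-) and 53.5% (WT) were higher, against 79.0% and 66.5% without the intensity trend, and 76.7% and 69.6% without both trends; quantile normalization gave 71.9% and 58.0%, and the 1.5-fold threshold 39.9% and 34.4%. Between the labels with LPS the share was 40.0%, and 53.4% after quantile normalization. For the difference of LPS change it was 20.2%, 31.6% without both trends and 35.0% at 1.5-fold. The gap between the labels in LPS change was widest for Arg2 (-0.47) as deposited, but for Nos2 after quantile normalization (-0.44) and for Gch1 without the intensity trend (-0.48) or both trends (-0.54).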

Other observations

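Genes often measured beside Arg1 as signs of alternative macrophage activation were mostly below the floor. Of 11 with a value, 4 reached it on any array, and Mrc1, Chil3, Retnla, Clec10a, Mgl2, Ccl24 and Irf4 did not on any. The additive limma fit called 1 of the 4 higher with LPS: the chemokine gene Ccl22 read 5.67 with LPS and 4.25 without on the Bid-/- arrays, and 6.21 with LPS and 3.91 without in WT (limma adjusted p = 0.0474). Its control values were below the floor in both labels, which limits what the size of the rise can say. Ccl17 read 4.43 with LPS and 3.94 without in WT, and was below the floor on both Bid-/- arrays. Tgm2 was 0.60 higher with LPS on the Bid-/- arrays and 0.94 in WT, and Bid-/- minus WT was 0.85 with LPS and 1.19 without. The interleukin-4 receptor chain Il4ra was -0.21 on the Bid-/- arrays and -0.19 in WT.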
